A study of Mus musculus with 6 samples.

Results

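The genes described here are those that a single lymphoma expressed far above the others. Among 3 Dnmt3b+/- peripheral T-cell lymphomas (PTCL), 78 genes had a highest value of at least 10 FPKM that was also more than 10 times the value of the second highest tumor. They are 78 of 34197 gene symbols in the table, and 78 of the 4379 genes whose highest value reached 10 FPKM (1.78%). Variable segments of the T-cell receptor alpha and beta chains and immunoglobulin genes were left out by name. The values described below are the ones that decided the choice, and the genes were thus chosen by their measured FPKM, so the values carry no test, and the background share is given for scale only.

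The study asks how loss of 1 allele of Dnmt3b, a gene for a de novo DNA methyltransferase, bears on blood cancers. RNA was taken from lymph node tumors of FVB mice that carry 1 conventional knockout allele and 1 wild-type allele of Dnmt3b in every cell, collected when the animals were terminally sick. The labels describe the 3 RNA-seq tumors as independent samples and give no age, sex or treatment. They form 1 group, so each tumor is a single library without a replicate. The labels name a HiSeq 2500 for the RNA-seq libraries, whereas the methods of the paper name a NovaSeq 6000, both with paired reads of 150 bp. The RNA-seq methods of the paper name no sorting of the tumor cells, and fewer cells of a type cannot be told apart from less RNA per cell.

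A PTCL is a cancer of mature T cells, and its cells usually descend from 1 cell and so carry 1 rearranged T-cell receptor. Lymph nodes also hold macrophages, dendritic cells, B cells and stroma. DNA methylation helps to keep tissue-restricted genes silent in cells that do not use them.

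The depth that the FPKM were scaled to was 30726570 reads for tumor 1, 18969988 reads for tumor 2 and 20770928 reads for tumor 3. Where no read fell on a gene, the table gives it the FPKM of 0.9 of a read, and 46.0%, 49.9% and 52.5% of the genes with recovered reads were in that state in tumors 1, 2 and 3. The intervals and limits given below cover only counting error. The labelled tissue was checked against a T-cell list, of which 15 of 15 genes reached 10 FPKM and none was among the 78. The list summed to 2084 FPKM in tumor 1, compared with 1778 FPKM in tumor 2 and 2045 FPKM in tumor 3, with Cd8b1 as the most abundant gene at 435, 166 and 443 FPKM. The most abundant gene of a list is, here and below, the one with the highest mean FPKM over the 3 tumors, and in tumor 2 Cd8b1 lay below Trbc1 with 284 FPKM, Trac with 213 FPKM and Lck with 208 FPKM. The T-cell genes were thus measured at a high level in each of the 3 tumors.

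The highest tumor was tumor 1 for 47 of the 78 genes, tumor 2 for 27 and tumor 3 for 4. These are 1.07%, 0.617% and 0.0913% of the 4379 genes. The highest value had a median of 19.9 FPKM, as in the 4301 other genes, and ran from 10.2 to 296 FPKM. The median ratio of the highest to the second highest tumor was 23.9, and it was 21.6 with low values taken at no less than the FPKM of 3 reads. In tumor 2 the median was 68.4, or 44.1 with that limit, and in tumor 1 it was 21.4, or 18.9. Of the 78 genes, 18 had a ratio above 100, of which 6 were highest in tumor 1 and 12 in tumor 2. With the limit of 3 reads these counts were 14, 5 and 9. The second highest tumor had no read for 14 genes and between 1 and 3 reads for 8 genes. With each library at a total of 1000000 FPKM 75 of the 78 passed the same thresholds, with median-of-ratios size factors 70, and under both of these rescalings 67. With 1 FPKM added to every value before the ratio 52 of the 78 passed. Genes that fail are named with their group below.

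**Figure D1:**
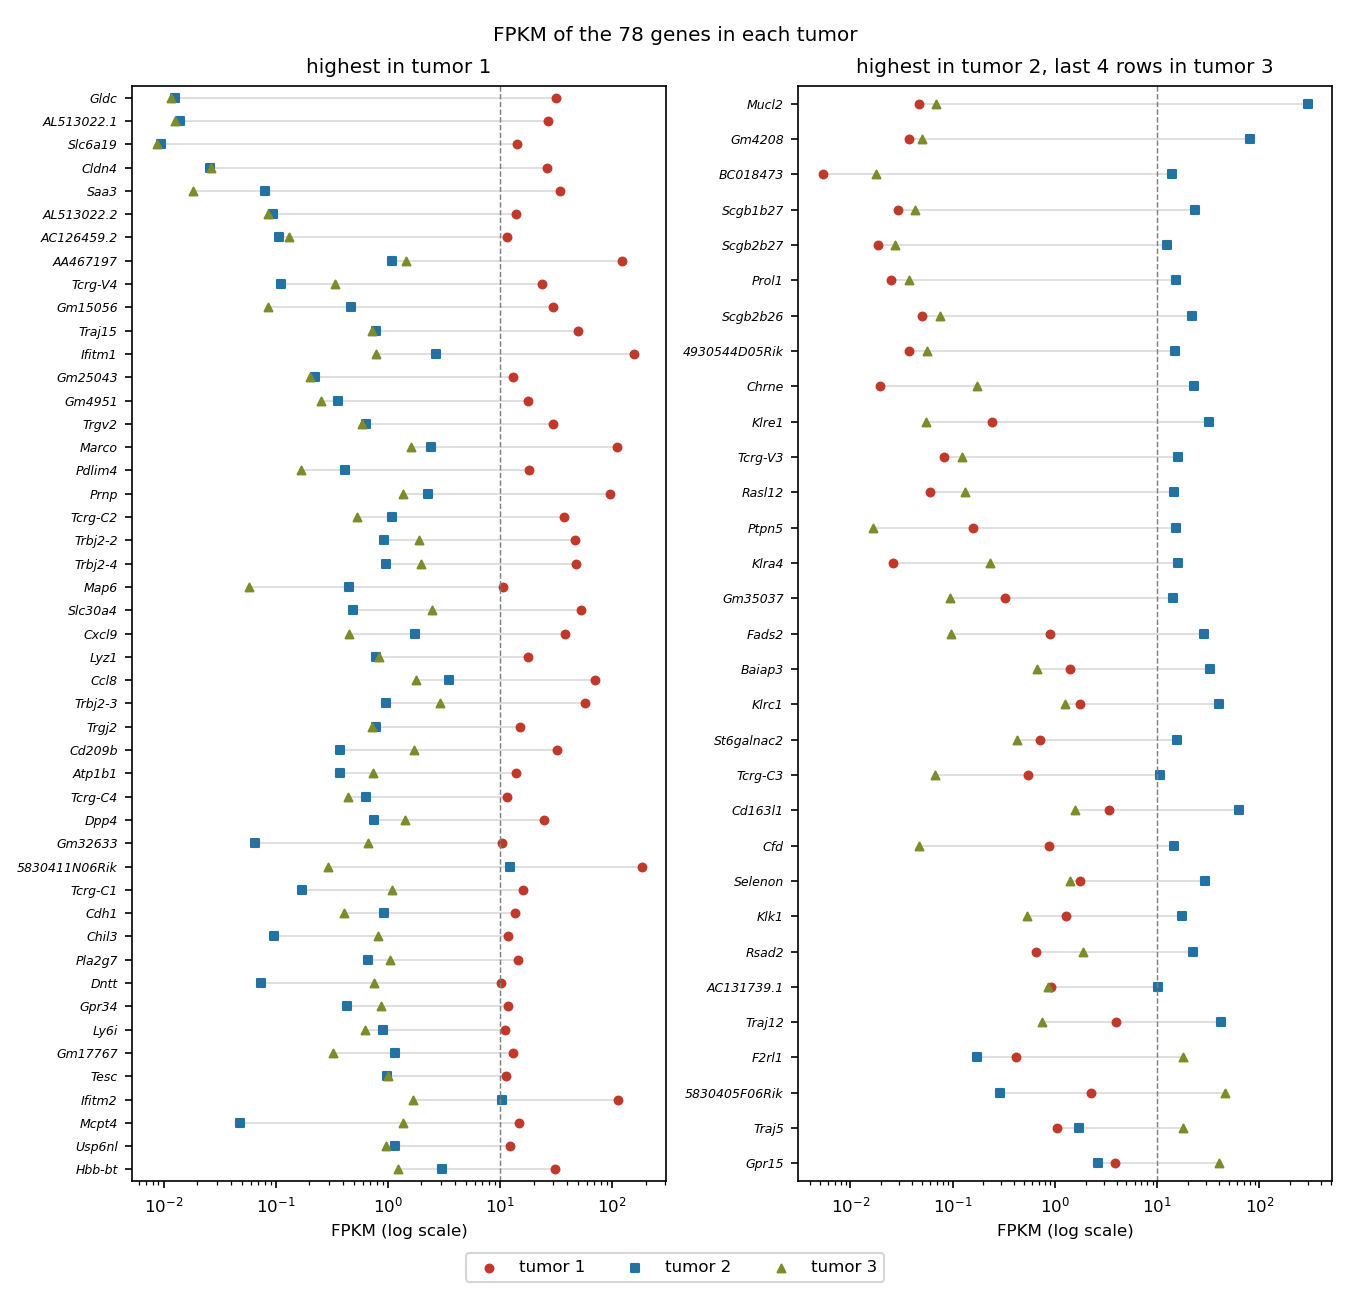
FPKM of each of the 78 genes in tumors 1, 2 and 3, on a log axis, with genes highest in tumor 1 on the left and those highest in tumors 2 and 3 on the right. The dashed line marks 10 FPKM. Mucl2 has the highest value, 296 FPKM in tumor 2.

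**Figure D2:**
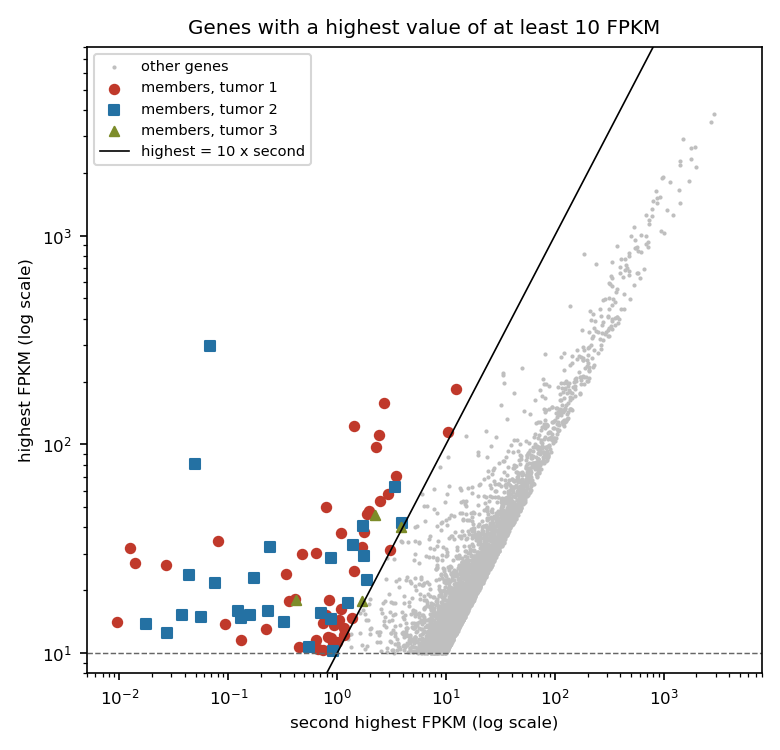
Highest FPKM against second highest FPKM of the 4379 genes with a highest value of at least 10 FPKM, both on log axes. Each point is a gene, and the 78 genes lie above the line of a ratio of 10.

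Among the genes of tumor 1, the largest ratios belonged to Gldc, AL513022.1, Slc6a19, Cldn4 and Saa3. Gldc (ENSMUSG00000024827), the glycine decarboxylase of the mitochondrial glycine cleavage system, had 31.9 FPKM in tumor 1 from 3678 reads, with a 95% counting interval from 30.9 to 32.9, and no read in the other tumors. Its level in tumor 1 was at least 615-fold higher. The exon length of Gldc did not give whole reads, so its length was solved on the assumption that the other tumors had no read, and the reads, the interval and the fold rest on that. Slc6a19, a transporter of neutral amino acids known from gut and kidney, had 14.1 FPKM from 2175 reads in tumor 1 and no read elsewhere. It was thus at least 364-fold higher there. Cldn4, a claudin of epithelial tight junctions, had 26.3 FPKM in tumor 1 from 1467 reads, no read in tumor 2 and 1 read in tumor 3. Its ratio was 992, with a 95% counting interval from 178 to 39196. Saa3, an acute-phase serum amyloid A protein made by macrophages and epithelium, had 34.4 FPKM in tumor 1, compared with 0.0809 FPKM in tumor 2 and 0.0185 FPKM in tumor 3. The 4 genes described here lie on chromosomes 19, 13, 5 and 7.

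The RefSeq window of 250 bases before to 50 bases after the start of Gldc is shown because the gene had the largest ratio in tumor 1, beside that of Slc30a4, which is described next to its neighbor below. Both are from GRCm38.p6 and read 5′ to 3′ on the minus strand, at chr19:30175392-30175691 and chr2:122702614-122702913. Capitals mark each CG, the pair of bases at which cells methylate DNA, which is its own reverse complement and so stands on both strands. The windows hold 10 and 46 CG. Of all 32851 promoter windows of the table, 94.6% hold at least 1 CG. A match describes the letters of a window only.
Gldc: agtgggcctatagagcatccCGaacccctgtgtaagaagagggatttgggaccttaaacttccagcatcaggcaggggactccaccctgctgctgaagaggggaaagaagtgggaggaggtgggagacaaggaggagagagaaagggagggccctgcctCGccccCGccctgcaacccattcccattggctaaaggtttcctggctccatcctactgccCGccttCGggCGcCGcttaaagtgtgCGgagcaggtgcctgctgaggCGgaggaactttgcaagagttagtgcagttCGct
Slc30a4: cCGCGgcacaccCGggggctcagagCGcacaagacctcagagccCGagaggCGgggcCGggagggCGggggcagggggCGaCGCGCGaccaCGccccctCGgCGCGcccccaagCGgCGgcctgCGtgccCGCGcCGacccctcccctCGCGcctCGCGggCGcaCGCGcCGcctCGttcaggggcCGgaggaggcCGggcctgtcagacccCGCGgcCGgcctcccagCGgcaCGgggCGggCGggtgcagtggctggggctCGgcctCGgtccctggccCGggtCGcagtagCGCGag

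Slc30a4, a zinc transporter, and AA467197, a gene for a small mitochondrial protein known from inflammation, are neighbors on chromosome 2, 40041 bp apart on opposite strands, and both were highest in tumor 1. AA467197 had 122 FPKM in tumor 1, compared with 1.10 FPKM in tumor 2 and 1.44 FPKM in tumor 3. Slc30a4 had 53.6 FPKM in tumor 1, compared with 0.490 FPKM in tumor 2 and 2.46 FPKM in tumor 3. Within 200 kb of the pair lie 10 genes in all, of which 3 reach 10 FPKM. The third of these is Slc28a2, a nucleoside transporter, with 12.5, 4.64 and 7.49 FPKM. Slc30a4 overlaps an antisense transcript, and whether the libraries keep the strand is not stated. On chromosome 13, AL513022.1, an RNA gene without a known role, had 27.0 FPKM in tumor 1 from 2825 reads and no read elsewhere. It was thus at least 472-fold higher in tumor 1. The 2 genes that overlap it, AL513022.2 and Gm25043, may share reads with it and had no read in tumors 2 and 3 either. This puts them at least 35.5-fold and 13.9-fold higher in tumor 1.

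Of the 78 genes, 14 were T-cell receptor genes other than the variable segments that were left out. The gamma chain locus on chromosome 13, from 19184974 to 19352756, held 8 of them over 168 kb, with 6 highest in tumor 1 and 2 in tumor 2. These genes encode the gamma chain, which pairs with delta in a class of T cells and is also often rearranged in alpha beta T cells. Tcrg-C2, a constant region, had 37.7 FPKM in tumor 1, compared with 1.10 FPKM in tumor 2 and 0.527 FPKM in tumor 3. Trgv2, a variable segment, had 30.1 FPKM in tumor 1, compared with 0.644 FPKM in tumor 2 and 0.588 FPKM in tumor 3. Tcrg-V4, another variable segment, had 24.0 FPKM in tumor 1 from 314 reads, no read in tumor 2 and 3 reads in tumor 3, a ratio of 70.8 with an interval from 24.0 to 345.

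Tcrg-C1 had 16.3 FPKM in tumor 1, compared with 0.171 FPKM in tumor 2 and 1.09 FPKM in tumor 3. Tcrg-C4 had 11.6 FPKM in tumor 1, compared with 0.642 FPKM in tumor 2 and 0.440 FPKM in tumor 3. Trgj2, a joining segment, had 28 reads in tumor 1 and no read elsewhere, at least 4.38-fold higher. Between these genes, Tcrg-V3 and Tcrg-C3, 17582 bp apart, stood highest in tumor 2 instead. Tcrg-V3 had 16.0 FPKM there from 107 reads and no read in the other tumors, at least 31.2-fold higher. Tcrg-C3 had 10.7 FPKM in tumor 2, compared with 0.551 FPKM in tumor 1 and 0.0667 FPKM in tumor 3. With 1 FPKM added, Tcrg-C1, Tcrg-C4, Trgj2 and Tcrg-C3 fell below 10, to 8.25, 7.65, 9.04 and 7.55. Neighboring segments of this locus are similar in sequence, and reads that fit several places may have been lost to the mapping quality filter. Trdc, the delta constant region, had 0.312 FPKM in tumor 1, compared with 0.0409 FPKM in tumor 2 and 0.187 FPKM in tumor 3, from 37, 3 and 15 reads. The gamma delta T-cell list holds 6 genes, 3 of them under 2 names each, and all 6 were measured. Of these, 3 were among the 78 and carried most of the sum in tumor 1, so the sums of 67.9, 2.54 and 5.81 FPKM, with Tcrg-C2 as the most abundant gene, largely restate the choice. Without these 3 genes, a sum added after seeing the data, the values were 2.38, 0.630 and 3.75 FPKM, mostly from Blk with 1.77, 0.430 and 3.53 FPKM, so tumor 3 was highest. Their part in the result was not tested.

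**Figure D3:**
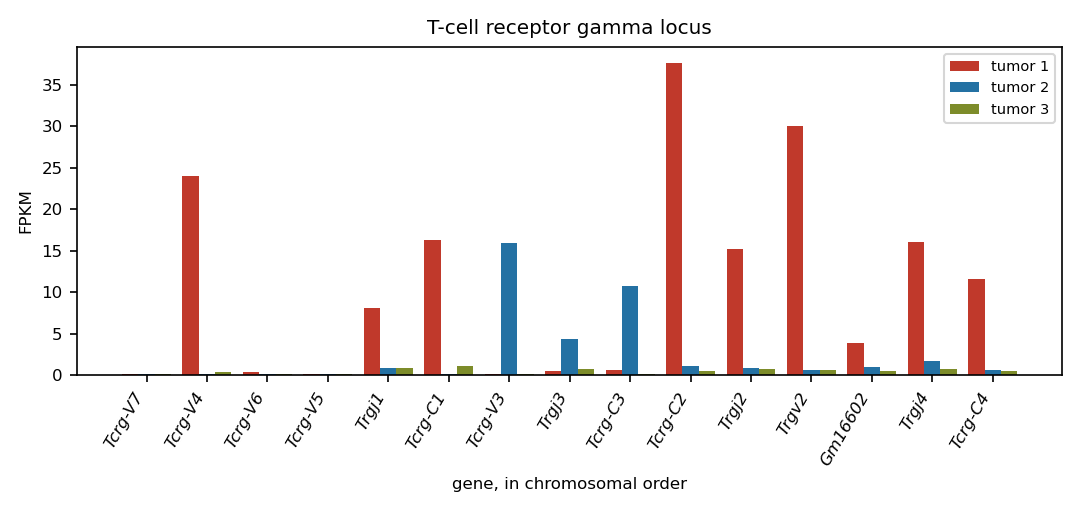
FPKM of the genes of the T-cell receptor gamma locus in tumors 1, 2 and 3, in chromosomal order, with bars from 0. Tumor 1 is highest at Tcrg-V4, Tcrg-C1, Tcrg-C2, Trgv2 and Tcrg-C4, and tumor 2 at Tcrg-V3 and Tcrg-C3.

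Joining segments of the alpha and beta chains made up the other 6 receptor genes. A rearranged receptor uses 1 joining segment, and the 6 genes are 49 to 62 bp long, shorter than a read of 150 bp. Traj15 had 92 reads in tumor 1 and none elsewhere, at least 15.1-fold higher. Traj12 had 46 reads in tumor 2 and 7 reads in tumor 1, but none in tumor 3, with a ratio of FPKM of 10.6, which fell to 9.71 with a total of 1000000 FPKM and to 8.69 with 1 FPKM added. Traj5 had 23 reads in tumor 3 and 2 in each of the other tumors, a ratio of 10.5 with an interval from 2.60 to 91.9. Traj4, with a ratio of 5.67, was not among the 78, but had 56 reads and 46.9 FPKM in tumor 2, more than Traj12 with 41.8 FPKM, and 16 and 6 reads in tumors 1 and 3. Of the beta joining segments, Trbj2-2, Trbj2-3 and Trbj2-4 lie within 0.454 kb and had 73, 87 and 72 reads in tumor 1 and 2, 3 and 2 reads in tumor 3, while tumor 2 had none. Their ratios were 24.7 with an interval from 6.59 to 208, 19.6 from 6.49 to 96.9 and 24.3 from 6.50 to 205. Other beta joining segments had reads too. Trbj2-5 and Trbj2-7 had 49 and 63 reads in tumor 1, and Trbj2-7 was highest in tumor 3 with 73.8 FPKM. The Trbj1 segments were all highest in tumor 2, up to 60.7 FPKM for Trbj1-7.

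Genes known from macrophages or other myeloid cells are given next for tumor 1. Of the 8 genes of the macrophage list that reached 10 FPKM, 1 was among the 78. Cd209b, Lyz1, Chil3, Gpr34 and Pla2g7 are on no list and were named after their values were seen. Marco (ENSMUSG00000026390), a scavenger receptor of macrophages in the marginal zone and in lymph nodes, had 111 FPKM in tumor 1, compared with 2.44 FPKM in tumor 2 and 1.60 FPKM in tumor 3. Its promoter window, shown because Marco is the macrophage list's gene among the 78, holds no CG (chr1:120504975-120505274, minus strand, GRCm38.p6).
Marco: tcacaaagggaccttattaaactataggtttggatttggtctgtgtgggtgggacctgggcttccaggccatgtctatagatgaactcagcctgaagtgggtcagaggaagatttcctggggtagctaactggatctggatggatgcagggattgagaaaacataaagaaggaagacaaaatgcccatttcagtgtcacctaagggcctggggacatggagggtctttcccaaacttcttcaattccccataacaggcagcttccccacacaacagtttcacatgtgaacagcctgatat

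Ccl8, a chemokine that attracts monocytes and T cells, had 70.8 FPKM in tumor 1, compared with 3.51 FPKM in tumor 2 and 1.79 FPKM in tumor 3. Cxcl9, an interferon-gamma induced chemokine for T cells, had 37.8 FPKM in tumor 1, compared with 1.77 FPKM in tumor 2 and 0.447 FPKM in tumor 3. Cd209b, a lectin of marginal zone and medullary macrophages, had 32.4 FPKM in tumor 1, compared with 0.374 FPKM in tumor 2 and 1.71 FPKM in tumor 3. By the choice of genes, tumor 1 lay more than 10 times above both other tumors in each of them. Other genes known from myeloid cells were Lyz1, Chil3, Gpr34 and Pla2g7, which reached 17.9, 11.9, 11.8 and 14.5 FPKM in tumor 1. With 1 FPKM added, Chil3, Gpr34 and Pla2g7 had ratios below 10. Lyz1 is a close copy of Lyz2, so its reads are uncertain. The macrophage list of 12 genes summed to 568 FPKM in tumor 1, compared with 153 FPKM in tumor 2 and 38.6 FPKM in tumor 3. Its most abundant gene was Lyz2 with 215, 33.1 and 20.3 FPKM, though Cd68 was higher in tumor 2 with 51.2 FPKM, and 11 of the 12 were highest in tumor 1. Without Marco the list summed to 456, 151 and 37.0 FPKM. Of the chemokine list, 22 genes were measured and 8 reached 10 FPKM, of which 2 were among the 78. Its sums were 435, 364 and 813 FPKM with Ccl5 as the most abundant and no read of Cxcl3 in any tumor. Without these 2 members the sums were 327, 358 and 811 FPKM, and tumor 1 was lowest. Their part in the result was not tested.

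Other tumor 1 genes belong to mast cells, red cells and immature lymphocytes. Mcpt4, a chymase of mast cells, had 14.8 FPKM in tumor 1 from 450 reads, no read in tumor 2 and 1.36 FPKM in tumor 3 from 28 reads, with its length solved as for Gldc by taking tumor 2 as without a read. The mast cell and basophil list of 11 genes summed to 41.8, 1.79 and 6.22 FPKM, 8 of its genes were highest in tumor 1, Mcpt4 was the most abundant, and Mcpt1 had no read in any tumor. Without Mcpt4 the sums were 27.0, 1.74 and 4.86 FPKM. Hbb-bt, an adult beta globin, had 31.1 FPKM in tumor 1, compared with 3.07 FPKM in tumor 2 and 1.23 FPKM in tumor 3. The erythroid list of 8 genes summed to 202, 38.4 and 4.80 FPKM, with Hba-a1 as the most abundant, and to 171, 35.4 and 3.57 FPKM without Hbb-bt. Globin genes are near copies, so Hbb-bt is uncertain beside Hbb-bs, which had 35.3, 6.93 and 1.25 FPKM. Dntt, the polymerase that adds bases at receptor joints in immature lymphocytes, had 10.3 FPKM in tumor 1, compared with 0.0743 FPKM in tumor 2 and 0.747 FPKM in tumor 3. With size factors, the ratios of Mcpt4 and Hbb-bt were 9.53 and 9.08 and the highest value of Dntt was 9.50 FPKM, so none of these 3 genes passed. With 1 FPKM added, the ratios of Mcpt4, Hbb-bt and Dntt were 6.69, 7.88 and 6.47. Rag2 and Ptcra of the same helper and immature T-cell list had no read in any tumor, and its sums were 233, 136 and 197 FPKM with Tcf7 as the most abundant gene, or 223, 136 and 196 FPKM without Dntt. Their part in the result was not tested.

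Ifitm1, Ifitm2 and 5830411N06Rik are further genes of tumor 1 and lie on chromosome 7. Ifitm1, an interferon-induced membrane protein that restricts virus entry, had 158 FPKM in tumor 1, compared with 2.70 FPKM in tumor 2 and 0.792 FPKM in tumor 3. Ifitm2, its neighbor on chromosome 7, had 114 FPKM in tumor 1, compared with 10.4 FPKM in tumor 2 and 1.69 FPKM in tumor 3, and its ratio fell to 9.89 with size factors. Ifitm3 of the same cluster was not among the 78. Its ratio was 1.81, from 79.1, 43.6 and 7.46 FPKM. Ifitm2 overlaps Gm45717 on the same strand, which had 77.6, 8.84 and 1.46 FPKM. The scavenger receptor gene 5830411N06Rik had the highest value of the 47 genes of tumor 1, 184 FPKM, compared with 12.4 FPKM in tumor 2 and 0.296 FPKM in tumor 3. Cd163l1, a related scavenger receptor gene 16138 bp away on the same strand, had its highest value in tumor 2 instead, 62.6 FPKM, compared with 3.38 FPKM in tumor 1 and 1.56 FPKM in tumor 3. These neighbors were thus high in different tumors.

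Prnp, the gene for the prion protein of the cell surface, had 97.0 FPKM in tumor 1, compared with 2.27 FPKM in tumor 2 and 1.38 FPKM in tumor 3. Dpp4, the surface peptidase CD26 of T cells, had 24.7 FPKM in tumor 1, compared with 0.759 FPKM in tumor 2 and 1.42 FPKM in tumor 3. Cdh1, the E-cadherin of epithelial junctions, had 13.7 FPKM in tumor 1, compared with 0.934 FPKM in tumor 2 and 0.410 FPKM in tumor 3, and its ratio fell to 7.59 with 1 FPKM added. Of the epithelial list, Krt5, Krt14 and Krt19 had no read in any tumor, and the 10 genes summed to 14.6, 3.30 and 1.30 FPKM, with Cdh1 as the most abundant. Only Cdh1 was highest in tumor 1. The other 9 were highest in tumor 2, but the 3 without a read, and Krt1 with the same ratio, rank by depth alone. Without Cdh1 the sums were 0.962, 2.37 and 0.890 FPKM. Its part in the result was not tested. The remaining named genes of tumor 1, Pdlim4, Map6, Atp1b1, Ly6i, Tesc and Usp6nl, had highest values between 10.8 and 18.2 FPKM. With size factors Map6, Tesc and Usp6nl no longer passed, and with 1 FPKM added all but Pdlim4 failed. Ly6i has close relatives at its locus, which makes its value uncertain.

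Genes of exocrine glands were 1 group of tumor 2, and Mucl2 alone of them was among its 8 highest genes. Mucl2 (ENSMUSG00000036925), a mucin-like protein of salivary glands, had 296 FPKM in tumor 2 from 3554 reads, with an interval from 287 to 306. It had no read in the other tumors and was thus at least 1054-fold higher in tumor 2. These reads and limits rest on a length solved as for Gldc. Prol1, a proline-rich protein of tears and saliva, had 15.3 FPKM from 337 reads there and no read elsewhere, at least 99.5-fold higher. Klk1, the tissue kallikrein of salivary gland, kidney and pancreas, had 17.4 FPKM in tumor 2, compared with 1.27 FPKM in tumor 1 and 0.536 FPKM in tumor 3, and its ratio fell to 8.10 with 1 FPKM added. Of the salivary gland list, 12 of 13 genes were measured, these 3 were among the 78, and the sums were 4.40, 341 and 4.36 FPKM, with Mucl2 as the most abundant and Klk1b1 without a read in any tumor. Without the 3 members the sums were 3.06, 12.0 and 3.72 FPKM, and Dcpp2 gave 6.99 FPKM of the sum in tumor 2. Of the 12 genes, 9 were highest in tumor 2, but Klk1b1 ranks so by depth alone. Smr3a and Bpifa2 were highest in tumor 3 and Amy1 in tumor 1. The part of the listed genes in the result was not tested. The windows of Mucl2 and Prol1 (chr15:103899263-103899562, minus strand, and chr5:88317062-88317361, plus strand, GRCm38.p6) are shown because these genes had no read outside tumor 2, and they hold 1 and 0 CG.
Mucl2: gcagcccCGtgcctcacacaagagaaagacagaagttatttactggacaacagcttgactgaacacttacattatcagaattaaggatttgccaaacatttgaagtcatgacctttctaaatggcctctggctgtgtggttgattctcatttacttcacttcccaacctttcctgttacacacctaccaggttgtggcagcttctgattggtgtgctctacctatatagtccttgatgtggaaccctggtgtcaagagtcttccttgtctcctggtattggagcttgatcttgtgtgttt
Prol1: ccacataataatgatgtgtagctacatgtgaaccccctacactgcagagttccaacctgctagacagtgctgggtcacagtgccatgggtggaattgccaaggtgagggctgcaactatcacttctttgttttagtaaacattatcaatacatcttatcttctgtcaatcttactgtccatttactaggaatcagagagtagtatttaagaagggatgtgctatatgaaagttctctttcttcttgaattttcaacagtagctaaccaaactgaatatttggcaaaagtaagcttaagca

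Secretoglobins, small proteins secreted by glands, gave 3 members on chromosome 7. Scgb1b27 had 23.6 FPKM in tumor 2 from 450 reads and no read elsewhere, at least 133-fold higher. Scgb2b26 had 21.7 FPKM from 238 reads and Scgb2b27 had 12.5 FPKM from 374 reads, with no read elsewhere, at least 70.1-fold and 110-fold higher. Genes of this family are similar, so the split between them is uncertain. Of the 9 genes within 200 kb of the cluster, 5 reached 10 FPKM, and Uba2 and Gpi1, which do not belong to the family, had ratios of 1.19 and 1.17. The promoter windows of the 3 members, shown because neighbors were high in the same tumor, hold 0, 1 and 4 CG (chr7:34021231-34021530, plus strand; chr7:33944936-33945235, minus strand; chr7:34013893-34014192, minus strand; GRCm38.p6).
Scgb1b27: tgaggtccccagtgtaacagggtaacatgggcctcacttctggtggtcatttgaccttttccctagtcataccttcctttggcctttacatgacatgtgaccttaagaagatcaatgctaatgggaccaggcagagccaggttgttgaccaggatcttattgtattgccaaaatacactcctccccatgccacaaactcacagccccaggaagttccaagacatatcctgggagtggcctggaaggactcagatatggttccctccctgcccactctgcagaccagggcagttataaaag
Scgb2b26: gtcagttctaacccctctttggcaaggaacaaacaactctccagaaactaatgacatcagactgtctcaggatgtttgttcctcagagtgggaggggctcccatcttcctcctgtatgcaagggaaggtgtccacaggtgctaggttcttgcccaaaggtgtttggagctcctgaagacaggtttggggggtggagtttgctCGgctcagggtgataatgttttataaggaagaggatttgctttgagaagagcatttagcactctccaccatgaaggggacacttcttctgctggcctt
Scgb2b27: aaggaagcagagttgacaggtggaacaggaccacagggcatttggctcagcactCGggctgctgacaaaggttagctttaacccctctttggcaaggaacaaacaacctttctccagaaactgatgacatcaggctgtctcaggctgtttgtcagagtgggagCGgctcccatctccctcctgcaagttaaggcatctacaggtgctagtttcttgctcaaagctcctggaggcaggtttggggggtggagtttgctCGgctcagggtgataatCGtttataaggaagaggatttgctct

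A list of pancreatic acinar genes was highest in tumor 2 but was not particular to it. Tumor 3 had no read for 16 of the genes, whereas tumor 1 had reads for every gene whose reads were recovered. All 25 were measured and highest in tumor 2, and the sums were 129.8, 665 and 2.54 FPKM with Ctrb1 as the most abundant, but none was among the 78. Cfd, the complement factor D secreted by fat cells, had 14.5 FPKM in tumor 2 from 254 reads, 0.882 in tumor 1 and no read in tumor 3, and its ratio fell to 8.25 with 1 FPKM added. The adipocyte list summed to 5.37, 27.9 and 4.66 FPKM over 11 genes, of which 10 were highest in tumor 2, with Cfd as the most abundant, and to 4.49, 13.4 and 4.62 FPKM without Cfd. Their part in the result was not tested.

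Some natural killer receptors were a further group of tumor 2. Klre1, a lectin-like receptor of natural killer and some T cells, had 32.2 FPKM in tumor 2, compared with 0.242 FPKM in tumor 1 and 0.0551 FPKM in tumor 3. Klrc1, the NKG2A receptor for Qa-1, had 40.6 FPKM in tumor 2, compared with 1.74 FPKM in tumor 1 and 1.26 FPKM in tumor 3. Klra4, a Ly49 receptor, had 15.9 FPKM in tumor 2, compared with 0.0261 FPKM in tumor 1 and 0.232 FPKM in tumor 3. Klra genes are near copies of each other, and 1 and 6 reads stood behind the low values of Klra4. Klre1 and Klrc1 lie 80187 bp apart on chromosome 6, and Klrd1 between them, the partner of NKG2A, had 37.2, 64.5 and 25.2 FPKM. The natural killer list summed to 299, 610.0 and 523 FPKM over 10 genes, with Nkg7 as the most abundant and 7 genes highest in tumor 2. Without the members Klre1 and Klrc1 the sums were 297, 537 and 522 FPKM, and Nkg7 and Eomes were highest in tumor 3. Ncr1 of the list was highest in tumor 1, with 0.380, 0.205 and 0.125 FPKM. Outside the list, Klrg1 with 11.4, 6.79 and 1.91 FPKM and Klra2 with 2.18, 0.0555 and 0.304 FPKM were also highest in tumor 1. The part of these receptors in the result was not tested.

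Gm4208, an RNA gene without a known role, had the second highest value of the 27 genes of tumor 2, 80.6 FPKM from 1331 reads. It had 1 read in tumor 1 and none in tumor 3, and was at least 395-fold higher than in tumor 3. On chromosome 11, BC018473 had 13.8 FPKM in tumor 2 from 1432 reads, none in tumor 1 and 2 reads in tumor 3, a ratio of 784 with an interval from 217 to 6480. St6galnac2, a sialyltransferase 57298 bp away, had 15.5 FPKM in tumor 2, compared with 0.716 FPKM in tumor 1 and 0.421 FPKM in tumor 3, and its ratio fell to 9.63 with 1 FPKM added. Both genes of this pair were high in tumor 2. Within 200 kb, St6galnac1, Mxra7 and Mgat5b were also highest there, with 4.87, 3.17 and 1.15 FPKM, below the minimum of 10 FPKM. Their ratios were 11.5, 19.4 and 122. Other neighbors, such as Jmjd6 and Srsf2, were highest in tumor 1, with ratios of 1.01 and 1.90. Chrne, a subunit of the muscle acetylcholine receptor, had 23.0 FPKM in tumor 2, compared with 0.0193 FPKM in tumor 1 and 0.171 FPKM in tumor 3. It overlaps 4930544D05Rik on the other strand, which had 244 reads in tumor 2 and 1 read in tumors 1 and 3 each, a ratio of 267 with an interval from 47.5 to 10595. Reads of such a pair cannot be assigned with certainty.

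Baiap3, a protein of vesicle traffic, had 33.1 FPKM in tumor 2, compared with 1.39 FPKM in tumor 1 and 0.669 FPKM in tumor 3. Selenon, a selenoprotein of the endoplasmic reticulum, had 29.1 FPKM in tumor 2, compared with 1.77 FPKM in tumor 1 and 1.41 FPKM in tumor 3. Rsad2, the interferon-induced antiviral enzyme viperin, had 22.3 FPKM in tumor 2, compared with 0.653 FPKM in tumor 1 and 1.90 FPKM in tumor 3, and its ratio fell to 8.04 with 1 FPKM added. Fads2, a desaturase of fatty acid synthesis, Ptpn5, a tyrosine phosphatase, and Rasl12, a Ras-like GTPase, reached 28.5, 15.2 and 14.7 FPKM in tumor 2. For 7 further genes or loci with provisional names, in tumors 1 and 2, the highest values ran from 10.2 to 30.0 FPKM and the ratios from 11.2 to 88.0. Of these, Gm17767, Gm32633 and AC131739.1 had ratios below 10 with 1 FPKM added, and Gm32633 fell below 10 FPKM with size factors.

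Tumor 3 had 4 genes. Gpr15 (ENSMUSG00000047293), a receptor that guides T cells to the colon, had 40.3 FPKM in tumor 3, compared with 3.89 FPKM in tumor 1 and 2.62 FPKM in tumor 2. F2rl1 (ENSMUSG00000021678), the protease-activated receptor PAR2, had 18.0 FPKM in tumor 3, compared with 0.416 FPKM in tumor 1 and 0.173 FPKM in tumor 2. The RNA gene 5830405F06Rik had 45.8 FPKM in tumor 3, compared with 2.25 FPKM in tumor 1 and 0.292 FPKM in tumor 2. It overlaps the beta segment Trbv5 on the same strand, which had 338 FPKM in tumor 3, so the reads of these 2 genes cannot be told apart. The joining segment Traj5, described with the receptor genes, is the fourth. The ratio of Gpr15 fell to 8.75 with every library at a total of 1000000 FPKM and to 8.46 with 1 FPKM added to every value, and that of Traj5 fell to 9.71 and 6.98. Gpr15 and Traj5 thus fall below the threshold under either setting.

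The 78 genes were also described by their type, length and place, with no test. Of them, 53 were protein coding (67.9%), against 94.3% of the 4301 other genes with at least 10 FPKM. The median exon length was 1612 bp against 3531 bp. Of the 78, 27 (34.6%) lay within 200 kb of another gene of the 78 that was high in the same tumor, against 59 of the 4301 others (1.37%). This share is defined by the choice of genes and the tumor, and many of the 27 are segments of 1 receptor locus or genes that overlap. Chromosomes 13 and 7 each held 14 of the 78, which is 10.1% and 4.40% of the genes with at least 10 FPKM there. CG content over the 78 genes is not compared here, because many genes lack a window in the RefSeq table. A window was found for 51 (65.4%) of the 78 and 3258 (75.7%) of the others. Over all 31 gene lists, 109 listed genes reached 10 FPKM and 16 of them (14.7%) were among the 78, against 1.78% of the 4379 genes. These 16 were in 10 lists, and the other 21 lists held none. The eosinophil, platelet, islet, skeletal muscle, liver and germline lists could hold none, since no gene of theirs reached 10 FPKM. The lists were chosen with earlier results of these data known, so these shares carry no test. The plot of list sums shows each list by tumor, and the housekeeping list summed to 7991, 7714 and 10316 FPKM with Eef1a1 as the most abundant.

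**Figure D4:**
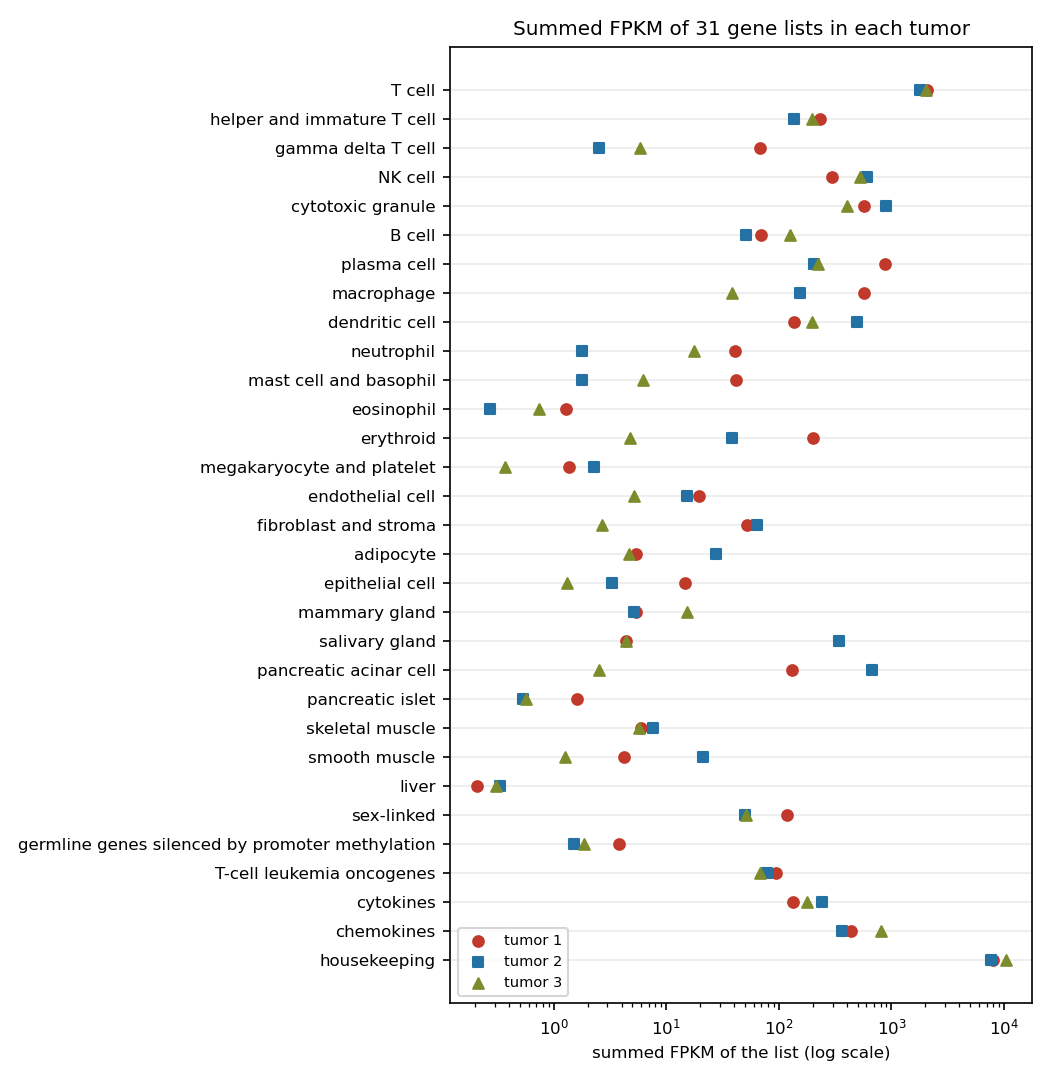
Summed FPKM of 31 gene lists in tumors 1, 2 and 3, on a log axis. The macrophage sum is highest in tumor 1, 568 FPKM, and the salivary gland sum in tumor 2, 341 FPKM.

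Close to the threshold, Hbb-bt, Gpr15 and Traj5 lay just inside with ratios of 10.1, 10.4 and 10.5. Just outside lay AC164623.1, Gpnmb and Col1a1 with ratios of 9.99, 9.59 and 9.53. The highest to second highest ratio was above 5 for 149 of the 4379 genes and above 20 for 47.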

How the data were processed

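RNA-seq of 3 Dnmt3b+/- PTCL was analysed from the values the authors deposited, which are FPKM on a linear scale. They come from an alignment of the authors to mm10 by STAR, counted per gene in SeqMonk after a mapping quality filter of 50. Bisulfite data and other libraries were not used here. Of 34245 rows, 1 per symbol with the highest mean was kept. The gene and list choices were made with earlier results of these data known. Reads were recovered with GENCODE M21 exon lengths, and a value within 0.02 of a whole number was called whole. Where a gene's length differed and a tumor had no read, its length was solved; 4 of the 78 genes have no recovered reads. Intervals are 95% Poisson counting intervals, and the floor for low values is the FPKM of 3 reads. Where a tumor had no read, a fold given as at least a value is the lower end of the ratio's interval. Steps were tested on simulated data.

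By rule, the text names per tumor the 8 highest genes and the 5 largest ratios, genes of the 31 lists, genes within 200 kb of another in the same tumor, the 3 genes on either side of the threshold, and each list's most abundant gene and genes without a read. Of the 78, 53 are named by it. The 25 others and further genes of loci were chosen after their values were seen. No test was made. Alternatives were other scalings, added FPKM, other thresholds, a floor of 3 reads, summed symbols, kept segments and each tumor left out. Tools were SciPy 1.17.1, NumPy 2.4.6 and pandas 2.3.3 under Python 3.11, with figures by matplotlib 3.10.9.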

Additional observations from a re-analysis of the deposited data

How the results depend on the processing

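The counts of genes high in a single tumor were recomputed under each alternative, given here for all tumors and then tumors 1, 2 and 3 where they moved by over 1.5 times. With every library brought to a total of 1000000 FPKM, the count was 201, with 114 in tumor 1 and 83 in tumor 2. This multiplies the values by 5.30, 4.83 and 4.47, so the minimum of 10 FPKM corresponds to 1.89, 2.07 and 2.24 FPKM of the table and admits more genes by construction. With 1 FPKM added to every value, tumor 1 had 30 and tumor 3 had 2. With more than 5 times the second value, the counts were 149, 75 and 70 in all tumors, tumor 1 and tumor 2. With more than 20 times, they were 47, 26 and 2 in all tumors, tumor 1 and tumor 3. With a minimum of 1 FPKM they were 277, 137, 129 and 11, and with 20 FPKM 39, 24, 13 and 2. With a minimum of 5 FPKM, tumor 2 had 42. With no minimum and the second value at no less than the FPKM of 3 reads, they were 355, 172, 169 and 14. Without tumor 1 the counts were 94 in all, 82 in tumor 2 and 12 in tumor 3. Without tumor 2 they were 103 in all, 92 in tumor 1 and 11 in tumor 3, and without tumor 3 they were 123 in all, 75 in tumor 1 and 48 in tumor 2. The cause of the other changes was not tested, except that lower thresholds and fewer tumors admit more genes by construction.

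Size factors gave 75 genes, of which 70 were among the 78, and the total of 1000000 gave 75 of the 78 among its 201. With each tumor at no less than the FPKM of 3 reads, 76 genes were left, without Trgj2 and Traj5. Of the 78, 67 passed under both rescalings. The total of 1000000 lost Gpr15, Traj12 and Traj5, whereas size factors lost Hbb-bt, Ifitm2, Mcpt4, Tesc and Usp6nl by the ratio and Dntt, Map6 and Gm32633 by the minimum. With 1 FPKM added 52 of the 78 passed. Depth limits the genes without a read in the second tumor, whose folds are lower bounds. A wrong exon length can give whole reads by chance, so the reads of a single gene may be wrong where its FPKM is not.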

Other observations

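Lists without a gene among the 78 differed between tumors too, and are given as summed FPKM in the order of tumors 1, 2 and 3. A list is led by the gene with the highest mean FPKM over the tumors, which need not lead in each tumor. The cytotoxic granule list, of proteins with which T cells kill, summed to 572, 899 and 406 FPKM, led by Gzmb. The B-cell list summed to 68.7, 51.5 and 125.5 FPKM, led by Cd79a, and the plasma cell list to 868, 204 and 223 FPKM, led by Jchain, the joining chain of secreted antibodies. The dendritic cell list summed to 136, 499 and 196 FPKM, led by Bst2. In the plasma cell list, Jchain made up most of the sum with 814 FPKM in tumor 1, but only 2 of the 7 genes were highest there and 4 were highest in tumor 3. In the dendritic cell list, Bst2 made up most of the sum with 459 FPKM in tumor 2, but only 4 of the 9 genes were highest there and 5 were highest in tumor 1. Of the granule list, 7 of 11 genes were highest in tumor 2, and of the B-cell list 8 of 10 in tumor 3. The neutrophil list summed to 41.1, 1.80 and 17.6 FPKM, led by S100a9, without a read of Elane. The eosinophil list summed to 1.29, 0.272 and 0.736 FPKM, led by Ear2, without a read of Ear6. The megakaryocyte and platelet list summed to 1.37, 2.28 and 0.367 FPKM, led by Pf4, without a read of Ppbp and Gp9. The last of these and the eosinophil list held no gene of 10 FPKM.

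Among lists of other tissues, the endothelial sum was 19.3, 15.4 and 5.19 FPKM, led by Pecam1, and the sum of fibroblast and stroma genes was 51.6, 63.5 and 2.68 FPKM, led by Ccl21a, a chemokine of lymph node stroma. The smooth muscle sum was 4.22, 21.4 and 1.27 FPKM, led by Tagln. The mammary gland sum was 5.34, 5.14 and 15.3 FPKM, led by Glycam1, a ligand for lymphocyte homing in lymph nodes. The milk genes Csn1s1, Csn1s2a, Csn2, Wap and Lalba, and Elf5, had no read. The islet sum was 1.62, 0.537 and 0.573 FPKM, led by Gcg, without a read of Ppy, Pyy and Iapp, and the skeletal muscle sum was 5.96, 7.55 and 5.76 FPKM, led by Mylpf, without a read of Myh1, Myh2, Myl1 and Pvalb. The liver sum was at most 0.336 FPKM, 8 of its 9 genes had no read in any tumor, and the reads of Ttr were not recovered. The sex-linked sum was 119, 49.8 and 51.1 FPKM, led by Xist, without a read of Ddx3y, Eif2s3y, Kdm5d and Uty.

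The germline list, of genes kept silent by promoter methylation in other cells, summed to 3.76, 1.51 and 1.86 FPKM, led by Sycp1, and 10 of its 17 genes had no read in any tumor, namely Ddx4, Mael, Tex101, Tdrd1, Dpep3, Asz1, Taf7l, Rhox5, Rhox2a and Stk31. No gene of this list reached 10 FPKM, so none could be among the 78. The list of T-cell leukemia oncogenes summed to 94.7, 78.3 and 67.3 FPKM, led by Myc, without a read of Tlx1, Tlx3 and Tcl1. The cytokine list summed to 134, 239.5 and 177 FPKM, led by Ltb, without a read of Il3 and Il9.

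Receptor segments that the choice of genes left out by name also differed between the tumors. The 146 genes left out also hold immunoglobulin genes, and 8 of the 146 would have passed the same thresholds. Those with at least 10 FPKM were 8 Trav, 8 Trbv, 3 Igk and 1 Igl genes. Of these, 5 Trav and 3 Trbv segments passed, and no immunoglobulin gene did. In tumor 1, Trav7-1 had 178 FPKM and Trbv12-2 had 318 FPKM, against at most 3.63 FPKM in the other tumors. In tumor 2, Trbv20 had 578 FPKM, against 10.01 FPKM in tumor 1 and 1.58 FPKM in tumor 3, and Trav6n-5 with 63.5, Trav6d-5 with 30.9 and Trav9d-1 with 13.5 FPKM had at most 0.714 FPKM in the other tumors. In tumor 3, Trbv5 had 338 FPKM, against 15.2 FPKM in tumor 1 and 0.143 FPKM in tumor 2, and Trav12-3 had 14.9 FPKM, against at most 0.147 FPKM in the other tumors. Each tumor thus had both an alpha and a beta variable segment among these 8. Similar segments share reads, so single values are uncertain.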
